A study of Mus musculus with 4 samples.

Results

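The sFD17 library was compared with the TP5 library, that is, a peptide that assembles without the bioactivity of thymopentin against the bioactive peptide that does not assemble. These are 2 of the 4 mRNA libraries, 1 per group, made from the CD11b+Ly6g+ MDSCs of lungs with an induced pre-metastatic niche (PMN). Of the 54532 genes in the count table, the 16367 with at least 10 counts in at least 1 of the 4 libraries were compared, as sFD17 minus TP5 on the log2 scale. All groups, control included, were C57BL/6 mice of 6 to 8 weeks that received 300 μl of medium conditioned by B16F10 mouse melanoma cells (MCM) into the peritoneum for 10 days and B16F10 cells by tail vein on day 7. Control (Ctrl) mice received no peptide. TP5, sFD17 or FR17 was given under the skin at 40 μM/kg per day from day 3, and lungs were taken on day 10, so the peptides were compared at a matched dose and time. TP5 is free thymopentin, FR17 joins TP5 to an assembling backbone through a linker that MMP2 cleaves, and sFD17 carries a scrambled pentapeptide at the place of TP5 and assembles in the same way. Each library pooled the sorted cells of 10 to 12 mice, so it is 1 measurement of a pool and holds no spread between animals.

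Interferons of type I act through a receptor pair on nearly all cells and work through a promoter element called ISRE, while interferon-γ acts through an element called GAS. Their target genes include the IFIT, OAS and Mx antiviral proteins, the guanylate-binding proteins (GBPs) and immunity-related GTPases (IRGs) that attack microbes in vacuoles, the Schlafen family, and the machinery that loads peptides onto MHC class I. Neutrophils, which share CD11b and Ly6G with granulocytic MDSCs, respond to interferons of both types. Lung tissue also holds alveolar and interstitial macrophages, dendritic cells and stromal cells, and their transcripts can enter a sorted pool.

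In the sFD17 library, 1103 genes were at least 2-fold higher than in TP5, which is 6.74% of the genes compared, and 923 were at least 2-fold lower, which is 5.64%. Of the 12 genes furthest above TP5 that the naming rule gives, 8 were GBP, IRG or IFIT genes, led by Gbp2 and Tgtp1. Of the 12 furthest below, 4 were alveolar macrophage markers, Atp6v0d2, Krt79, Ear1 and Fabp1. With the 95% exact counting interval wholly past 2-fold, 318 genes were higher (1.94%) and 108 lower (0.66%). A 4-fold difference or more separated 170 genes above TP5 and 104 below. The median log2 fold change of all genes was −0.04, the middle 50% lay between −0.40 and 0.34, and 46.7% of genes stood above TP5. Of the genes at least 2-fold apart, 54.4% were higher under TMM scaling, and 30.1% under library size alone. Each value rests on 1 library per group, so no difference has a replicate check, no p-value is given, and the intervals cover counting error only.

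**Figure D1:**
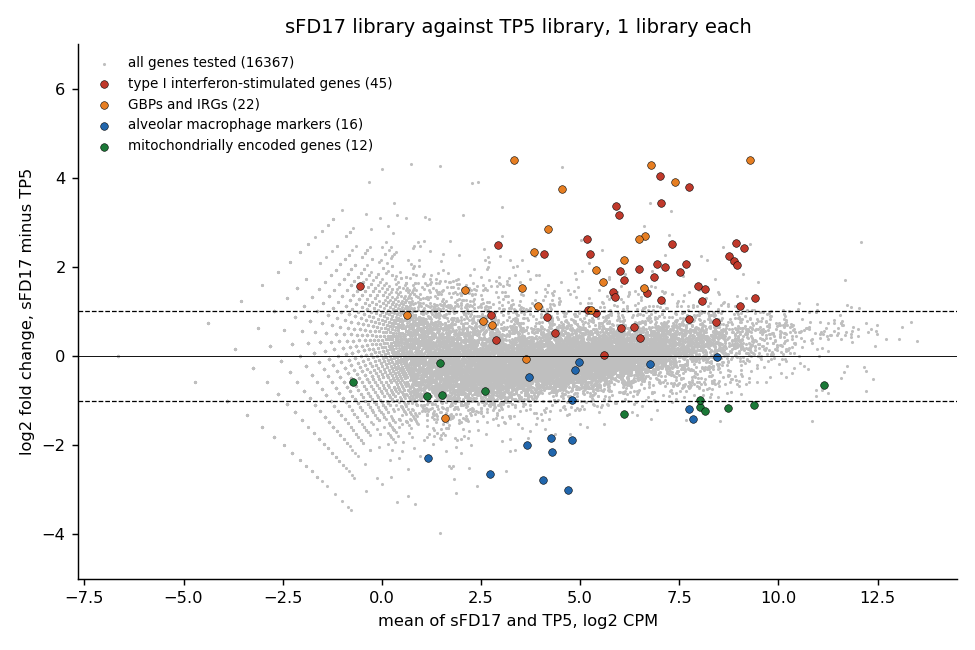
Log2 fold change of sFD17 over TP5 (vertical axis) against the mean log2 CPM of both libraries (horizontal axis) for the 16367 genes compared, 1 point per gene, with dashed lines at a 2-fold difference. Type I interferon-stimulated genes (red) and GBPs with IRGs (orange) lie mostly above the upper line, and 10 of the 16 alveolar macrophage markers (blue) lie below the lower line.

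The libraries held between 15543071 counts (sFD17) and 19638228 (FR17), with 17165184 in TP5. TMM factors were 0.849 for sFD17 and 1.02 for TP5, so equal counts in both libraries correspond to a log2 fold change of 0.41. Below, 4 counts in a row are those of Ctrl, TP5, sFD17 and FR17, a lone value after them is the log2 fold change of sFD17 over TP5, a range is its 95% counting interval, and list members counted as higher or lower were so by at least 2-fold, to be read against the 6.74% and 5.64% of all genes. List medians are to be read against −0.04, the median of all genes. Over all genes compared, sFD17 was the highest of the 4 libraries for 31.3% and the lowest for 36.9%. TP5 was the highest for 19.8% and the lowest for 15.1%. A count of 3, the floor used for genes not detected, corresponds to 0.227 CPM (counts scaled to library size) in sFD17 and 0.171 in TP5. Both sorting markers were present. Itgam, which encodes CD11b, had 6430 counts in Ctrl, 6497 in TP5 and 5711 in sFD17, against 6924 in FR17. For Ly6g the counts were 1234, 1716, 1468 and 2081 in the same order. Their log2 fold changes of sFD17 over TP5 were 0.22 and 0.19. The annotation places 3450 of the 5024 exon bases of Itgam also in Gm49368 on the same strand. The 18 neutrophil markers took 4.66% of counts in TP5 and 5.11% in sFD17, with 15 above TP5 and 3 below, a ratio of summed scaled counts of 1.32. All ratios in this paragraph are of TMM-scaled sums, whereas the shares are unscaled, so a ratio is not the quotient of the shares beside it. The alveolar macrophage markers took 0.147% in TP5 and 0.0713% in sFD17, a scaled ratio of 0.583. The resident and interstitial macrophage markers took 0.632% and 0.343% (0.652), and the dendritic cell markers 0.971% and 0.465% (0.577). T cell markers had a ratio of 0.775, B and plasma cell markers 0.808, endothelial markers 1.39, fibroblast and smooth muscle markers 1.43, airway and alveolar type 1 markers 1.35 and alveolar type 2 markers 1.02. The unscaled share of alveolar type 2 markers was lower in sFD17, at 0.0267% against 0.0314% in TP5. Without its most abundant gene, each list above kept its side of 1. Alveolar macrophage markers stood at 0.452 without Itgax and endothelial markers at 1.54 without Pecam1. Airway and alveolar type 1 markers stood at 1.22 without Scgb1a1. In other lists the reading relative to 1 depended on 1 abundant gene. Monocyte markers stood at 1.13, and at 0.889 without Nr4a1, which is also an immediate early gene. The unscaled share of monocyte markers was 0.475% in TP5 and 0.445% in sFD17. NK cell markers stood at 1.56, and without the chemokine gene Ccl5 the interval of the ratio, 0.979 to 1.23, held 1. Platelet and megakaryocyte markers stood at 0.754, and at 1.20 (1.03 to 1.39) without the platelet factor gene Pf4. Red blood cell markers, at 1.34, stood at 1.01 without Hbb-bs, and eosinophil, mast cell and basophil markers, with an interval of 0.838 to 1.08, stood at 0.776 without Gata2, both on few counts. Of 7 melanoma markers Pmel alone was compared, at 38 counts in TP5 and 28 in sFD17, and Tyr, Tyrp1 and Slc45a2 had 0 counts in all 4 libraries. In pooled RNA, fewer cells of a type and less RNA per cell cannot be told apart, and the part of these marker differences in the results below was not tested.

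Promoter windows were read to show the element that interferon-stimulated genes share. In the RefSeq table for GRCm38.p6, which gives 300 bases around each start site, 11190 of the 16367 genes compared had a window. ISRE was searched as GAAA, any pair of bases and GAAA again, on both strands, and matches to different motifs could overlap. The stretches below belong to the 4 named interferon genes with the most counts in sFD17 whose window holds ISRE, each of 120 bases on the plus strand with the matches in capitals. They lie at chr3:142620543-142620662 (Gbp2), chr11:82951892-82952011 (Slfn5), chr19:34583352-34583471 (Ifit3) and chr19:34640749-34640868 (Ifit1). The match of Gbp2 ran from 59 to 50 bases upstream of the RefSeq start site of its window and that of Slfn5 from 155 to 146. These start sites lie inside the genes as annotated for the counts, which begin at 142620602 (Gbp2) and 82951349 (Slfn5). Both matches therefore lie past the annotated gene starts. Ifit3 and Ifit1 held 2 matches each.
Gbp2: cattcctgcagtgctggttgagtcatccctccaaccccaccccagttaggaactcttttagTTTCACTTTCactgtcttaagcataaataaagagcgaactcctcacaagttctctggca
Slfn5: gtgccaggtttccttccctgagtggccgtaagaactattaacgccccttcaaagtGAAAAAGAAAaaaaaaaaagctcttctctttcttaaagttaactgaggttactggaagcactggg
Ifit3: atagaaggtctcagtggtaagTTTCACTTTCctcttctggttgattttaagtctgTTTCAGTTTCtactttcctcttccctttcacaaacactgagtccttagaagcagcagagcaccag
Ifit1: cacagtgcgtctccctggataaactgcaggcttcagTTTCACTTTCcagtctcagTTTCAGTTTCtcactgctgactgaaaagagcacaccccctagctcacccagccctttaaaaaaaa

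ISRE was present in 3.21% of the 14224 windows of the genes compared and in 3.44% of all 32851 windows in the table. It was present in 9.42% of 690 windows of genes at least 2-fold higher in sFD17 and in 1.58% of 698 windows of genes at least 2-fold lower. For genes with the whole counting interval past 2-fold the shares were 19.1% of 236 windows above, while 1 of 77 windows below held it. The type I interferon-stimulated list had ISRE in 43.2% of its 44 windows and the GBPs with IRGs in 70.6% of 17, against 0 of the 16 windows of alveolar macrophage markers. GAS, searched as TTCNNNGAA, was present in 6.97% of windows of the genes compared, 8.55% of those higher, 8.88% of those lower and 41.2% of those of GBPs and IRGs. With the whole interval past 2-fold it was in 12.3% of the 236 windows above and in 2 of the 77 below. The NF-kB consensus differed little between the 2-fold sets, at 10.3% of windows compared, 10.1% of those higher and 9.31% of those lower. With the whole interval past 2-fold it was in 12.3% of the 236 windows above and in 8 of the 77 below. In the 44 windows of the type I list, the NF-kB consensus and GAS each stood at 15.9%. CCAAT, a common promoter box, was in 37.2% of windows compared, 37.7% of those at least 2-fold higher and 41.7% of those at least 2-fold lower. A match is a description of letters and does not show binding, and the 4 genes printed were chosen for holding ISRE.

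**Figure D2:**
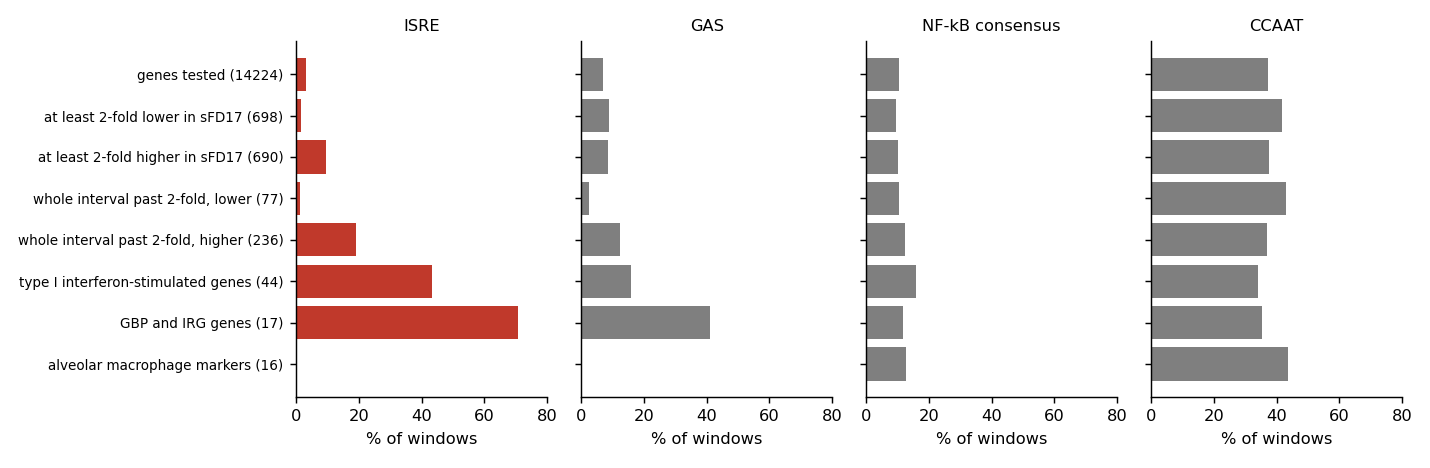
Share of RefSeq promoter windows of 300 bases, in percent (horizontal axis), that hold ISRE, GAS, the NF-kB consensus or CCAAT, for the gene sets named at the left with their numbers of windows. The ISRE bar is 3.21% for the genes compared, 9.42% for those at least 2-fold higher in sFD17 and 1.58% for those at least 2-fold lower, while the CCAAT bars of the same sets lie between 37.2% and 41.7%.

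The 9 interferon-linked lists together held 147 compared genes, of which 82 (55.8%) were at least 2-fold higher in sFD17 than in TP5, against 6.74% of all genes, and 1 (0.680%) was at least 2-fold lower, against 5.64%. Their median log2 fold change was 1.12. The 9 lists were receptors with JAK-STAT, interferon regulatory factors, type I interferon-stimulated genes, GBPs, IRGs and Schlafen genes. The others were MHC class I with peptide loading, the immunoproteasome with its activator, and cytosolic nucleic acid sensors. Interferon ligands and inducing cytokines were a list outside the 9, with 2 of 8 higher, 0 lower and a median of 0.56. They made up 71 of the 318 genes (22.3%) whose whole interval was past 2-fold above TP5 and 0 of the 108 below. Of the 45 type I interferon-stimulated genes compared (46 listed, with Ifi44l under the count minimum), 34 were at least 2-fold higher and 0 lower, all 45 stood above TP5, and the median was 1.70. In 44 of these 45 genes the sFD17 value was the highest of the 4 libraries, against 31.3% of all genes compared.

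The IFIT genes encode proteins that bind foreign RNA ends. Ifit2 (ENSMUSG00000045932, chromosome 19 from 34550694 to 34576419, plus strand) had 260 counts in Ctrl, 259 in TP5 and 3217 in sFD17, against 266 in FR17, and its log2 fold change of sFD17 over TP5 was 4.03 (95% interval 3.86 to 4.23). Counts of Ifit3, whose promoter holds a pair of ISRE matches, were 603, 500, 5243 and 571 in the same order, a log2 fold change of 3.80 (3.67 to 3.94). In both genes the Ctrl, TP5 and FR17 libraries lay close together and sFD17 stood apart. Ifit1 had 438, 391, 3200 and 402 counts (3.44), and Ifit3b, a near copy of Ifit3 with which reads may be shared, 189, 186, 1452 and 166 (3.36). Herc6, a ligase of the ISG15 pathway, had 248, 220, 1504 and 285 counts, a log2 fold change of 3.17. Of its 9292 exon bases 1269 also belong to Gm45193 on the same strand. Xaf1, a proapoptotic protein, had 190, 175, 814 and 264 counts (2.61). Members with smaller differences were also on the list. The lowest was Ms4a4c at a log2 fold change of 0.03, with 842 counts in TP5 and 647 in sFD17. It and the next examples were chosen after their values were seen. The antiviral GTPases Mx1 and Mx2 stood at 0.87 and 0.93, below the 2-fold line, while the viperin gene Rsad2 reached 2.54, from 2528 counts in TP5 to 11066 in sFD17.

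GBPs assemble on microbial membranes. Gbp2 (ENSMUSG00000028270, chromosome 3 from 142620602 to 142638008, plus strand) had 1654 counts in Ctrl, 978 in TP5, 15599 in sFD17 and 1605 in FR17, a log2 fold change of 4.40 (4.31 to 4.50) over TP5. Gbp5 (ENSMUSG00000105504, chromosome 3 from 142493978 to 142522344) had 304, 188, 2774 and 306 counts, a difference of 4.28 (4.08 to 4.51). For both genes TP5 was the lowest library and sFD17 the highest. Of the 9 GBPs compared (Gbp10 and Gbp11 were under the count minimum), 6 were at least 2-fold higher and 1 was at least 2-fold lower. That 1 was Gbp2b, with 100, 77, 21 and 185 counts in Ctrl, TP5, sFD17 and FR17, a log2 fold change of −1.40 (−2.23 to −0.75). Gbp4, Gbp7, Gbp3 and Gbp9 had log2 fold changes of 2.33, 2.15, 1.66 and 1.51, and Gbp8 had 0.69. TP5 held the lowest value of the 4 libraries for 7 of the 9, against 15.1% of all genes compared. GBPs are alike in sequence, so reads may have been divided differently among them.

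IRGs act on the membranes of vacuoles that hold parasites. Tgtp1 (ENSMUSG00000078922, chromosome 11 from 48985327 to 48994172) had 30 counts in Ctrl, 14 in TP5, 253 in sFD17 and 21 in FR17, a log2 fold change of 4.40 (3.81 to 5.48). Its near copy Tgtp2 had 148, 76, 423 and 175 counts (2.85), and the counts of these paralogs are uncertain. Ifi47 had 461, 367, 4130 and 628 counts, a difference of 3.90 (3.75 to 4.06). All 3 were highest in sFD17. Gm12250 had a log2 fold change of 3.74, Irgm1 of 2.70 and Igtp of 2.62. Igtp and its neighbour Irgm2 share 162 exon bases on the same strand. Of the 13 IRG genes compared, 11 were at least 2-fold higher and 0 lower, with a median of 1.94. Irgq, chosen after its value was seen, alone stood below TP5, at −0.07.

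The Schlafen genes, which regulate leukocyte quiescence and restrict viruses, were higher in 6 of 8 at 2-fold, and all 8 had their highest value in sFD17. Slfn4, a gene of myeloid cells, had 27013 counts in Ctrl, 22092 in TP5, 98289 in sFD17 and 16778 in FR17. Its log2 fold change was 2.56 (2.54 to 2.59). Slfn5, whose promoter stretch is given above, had 1832, 1884, 6302 and 1679 counts (2.15). Slfn8 followed at 1.84, and Slfn2 was the least different at 0.66. These genes resemble one another, and Slfn5 overlaps an antisense gene on 559 exon bases, where reads cannot be separated without strand.

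**Figure D3:**
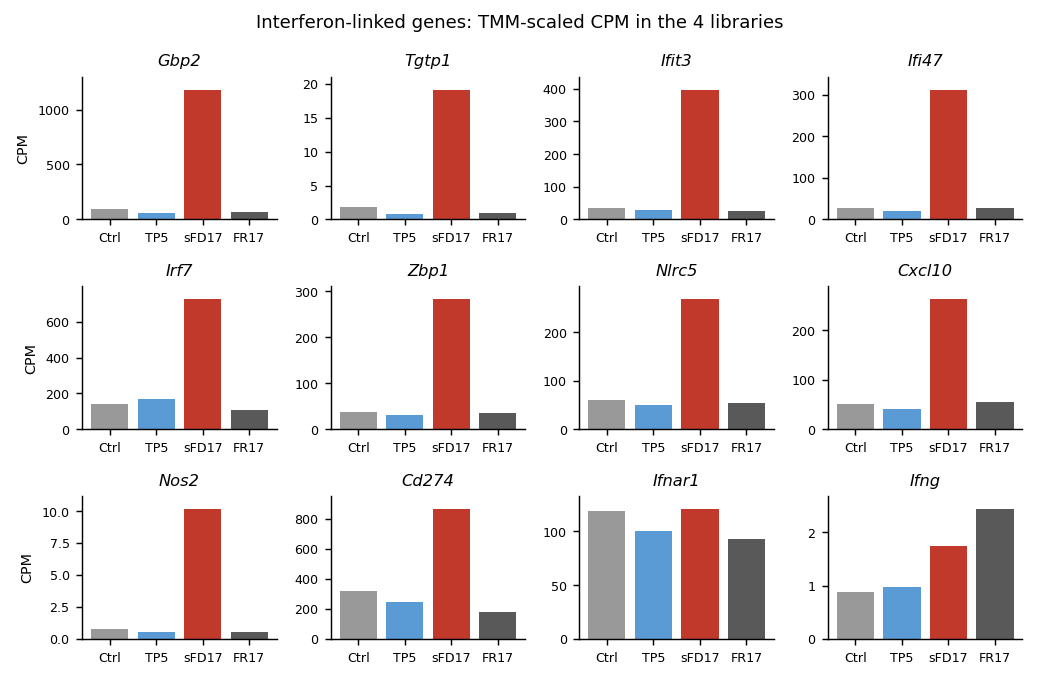
TMM-scaled CPM (vertical axes, linear from 0) of 12 genes in the Ctrl, TP5, sFD17 and FR17 libraries, 1 bar per library and no error bars because each group has 1 library. In 10 of them, from Gbp2 to Cd274, the sFD17 bar stands above the other bars, while Ifnar1 and Ifng differ less or have another order.

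Among the signalling genes of the pathway, the list median was smaller than that of the interferon-stimulated genes. Stat2, a transcription factor that acts at ISRE, had 976 counts in Ctrl, 856 in TP5, 3112 in sFD17 and 1031 in FR17, a log2 fold change of 2.27 (2.16 to 2.38). Usp18, a feedback inhibitor at the type I receptor, had 169, 227, 841 and 181 counts (2.29). Of the 19 receptor and JAK-STAT genes compared, 3 were at least 2-fold higher and 0 lower, 17 stood above TP5, and the median was 0.51. The receptor gene Ifnar1, outside the naming rule, had 2010, 1766, 1595 and 2132 counts, a difference of 0.26. Irf7, the factor that amplifies type I interferon production, had 2346, 2939, 9579 and 2488 counts, a log2 fold change of 2.11 (2.06 to 2.18). Irf1 had 5873, 4230, 7347 and 5719 counts (1.21). Irf9 was at 0.93, and Irf3, Irf4 and Irf8 were at −0.26, −0.41 and −0.20, so 2 of 9 interferon regulatory factors passed 2-fold.

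Transcripts of the interferons themselves were few. Ifng, also outside the naming rule for its low counts, had 15 counts in Ctrl, 17 in TP5, 23 in sFD17 and 56 in FR17, with an interval of −0.12 to 1.84 for sFD17 over TP5, so no difference was detectable at this depth. Ifnb1 had 47, 18, 19 and 76 counts, with an interval that held 0. Neither ligand was highest in sFD17. Il12a, the p35 subunit of interleukin 12, had 28, 16, 65 and 24 counts, a log2 fold change of 2.30 (1.63 to 3.32). Il27 had 75, 60, 149 and 125 counts (1.69), and Il12b, the other subunit of interleukin 12, went the other way with 55, 131, 63 and 97 (−0.63).

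Sensors of nucleic acids in the cytosol were higher in 11 of 21 and at least 2-fold lower in 0, with a median of 1.06. Zbp1, a sensor of Z-form nucleic acids that can start necroptosis, had 619, 521, 3732 and 806 counts in Ctrl, TP5, sFD17 and FR17, a log2 fold change of 3.25 (3.12 to 3.39). Ikbke, a kinase upstream of the interferon regulatory factors, had 446, 399, 2274 and 530 (2.91). Ifi204, Ifi208, the RNA sensor Ifih1 and its relative Dhx58 had log2 fold changes of 2.25, 2.24, 1.91 and 1.73.

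Most MHC class I genes stood above TP5 and all class II genes compared stood below. Of 19 class I and peptide loading genes, 8 were at least 2-fold higher and 0 lower, 14 were above TP5 and 5 below, the lowest at −0.70, and the median was 0.60. Nlrc5, the transactivator of class I genes, had 1017 counts in Ctrl, 861 in TP5, 3530 in sFD17 and 1229 in FR17 (2.44, 2.34 to 2.56). The peptide transporter gene Tap1 had 2828, 2378, 4970 and 3309 counts (1.47). Tapbpl was at 1.48, H2-T24 at 1.38, Tapbp at 1.16 and H2-Q4 at 1.13, and the H2 genes are close paralogs. Immunoproteasome subunits and the PA28 activator had a median of 0.84, 2 of 6 at least 2-fold higher, with Psme2b at 1.20 and Psmb9 at 1.07. The 31 constitutive proteasome subunits had a median of −0.26, 0 at least 2-fold apart in either direction and 29 below TP5, with Psmc6 the furthest at −0.72. All 11 class II genes stood below TP5, 0 of them by 2-fold, with a median of −0.77. Cd74, the invariant chain, had 78790, 105697, 46460 and 131494 counts in Ctrl, TP5, sFD17 and FR17 (−0.78, −0.79 to −0.76), and H2-Ab1 had 39680, 54637, 22983 and 64065 (−0.84). TP5 held the highest scaled value of the 4 libraries for all 11, against 19.8% of all genes compared. H2-Ab1 and Cd74 are also on the dendritic cell marker list.

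Alveolar macrophages clear surfactant lipid from the air spaces, and their genes were among the steepest differences below TP5. All 16 markers compared stood below TP5, 10 of them by at least 2-fold (62.5%, against 5.64% of all genes), with a median log2 fold change of −1.63. The sFD17 value was the lowest of the 4 libraries for 15, against 36.9% of all genes compared. Atp6v0d2 (ENSMUSG00000028238, chromosome 4 from 19876841 to 19922605), a subunit of the vacuolar proton pump, had 1216 counts in Ctrl, 816 in TP5, 75 in sFD17 and 2392 in FR17, a log2 fold change of −3.01 (−3.39 to −2.69). Krt79 (ENSMUSG00000061397, chromosome 15 from 101929332 to 101940324), a keratin, had 892, 514, 55 and 1954 counts (−2.78, −3.24 to −2.41). Ear1, a ribonuclease of the eosinophil-associated family with close paralogs, had 407, 202, 23 and 827 (−2.65). For these 3 genes the order of the libraries was FR17, Ctrl, TP5 and sFD17 from high to low. The fatty acid-binding protein gene Fabp1 had 145, 66, 9 and 394 counts (−2.29, −3.65 to −1.45). Cathepsin K (Ctsk) was at −2.15 and the lipid droplet gene Cidec had 358 counts in TP5 and 66 in sFD17. The mannose receptor gene Mrc1 had 8819, 5852, 1652 and 14180 counts (−1.41). Not all markers differed alike. Itgax and Siglecf, chosen after their values were seen, were at −0.02 and −0.12, and Itgax is also expressed by dendritic cells.

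Other genes among the 12 furthest below TP5 had the same order of libraries. Ereg, an EGF receptor ligand, had 131 counts in Ctrl, 110 in TP5, 11 in sFD17 and 272 in FR17 (−2.75). Kcnn3, a potassium channel, had 423, 264, 32 and 778 (−2.58). Acaa1b, Flvcr2, Cpne5 and Trim29 had log2 fold changes of −2.52, −2.51, −2.48 and −2.47. The remaining pair differed in pattern. Nutf2-ps1, a copy of Nutf2 whose reads can belong to the parent gene, had 50, 51, 3 and 20 counts, with an interval of −6.00 to −2.05. Zfp994, a zinc finger gene, had 46, 58, 8 and 85 counts (−2.25).

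Markers of resident and interstitial macrophages were at least 2-fold lower in 3 of 20 (15%, against 5.64% of all genes), with 18 below TP5 and a median of −0.89. The haemoglobin scavenger receptor gene Cd163 had 3879, 1954, 611 and 6812 counts in Ctrl, TP5, sFD17 and FR17 (−1.26, −1.40 to −1.13). Mertk, a receptor for dying cells, had 1087, 720, 233 and 1714 (−1.21), and Stab1, another scavenger receptor, was at −1.03. The complement genes C1qa, C1qb and C1qc were at −0.92, −0.86 and −0.97. Csf1r, the receptor of macrophage colony-stimulating factor, chosen after its value was seen, had 16058, 15428, 11959 and 22343 counts and a log2 fold change of 0.04. Genes of lipid handling had 3 of 24 at least 2-fold lower and 0 higher, a median of −0.43, with the lipase Lpl and the oxysterol enzyme Ch25h both at −1.42 and Idi1 at −1.22. The lysosomal list had 2 of 28 lower, Atp6v0d2 and Ctsk, and a median of −0.23. Several of these genes are macrophage markers or are abundant in macrophages, so the lists are not separate measurements.

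All 14 dendritic cell markers stood below TP5, 3 of them by at least 2-fold, with a median of −0.81. Batf3, a factor needed by cross-presenting dendritic cells, had 264 counts in Ctrl, 479 in TP5, 134 in sFD17 and 426 in FR17 (−1.42, −1.71 to −1.15). Siglech, a plasmacytoid marker, had 167, 173, 55 and 329 (−1.22), and Cd209a had 1388, 2753, 1031 and 2399 (−1.01). For Batf3 and Cd209a the TP5 library was the highest after scaling. Over the list this held for 11 of 14, against 19.8% of all genes compared.

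**Figure D4:**
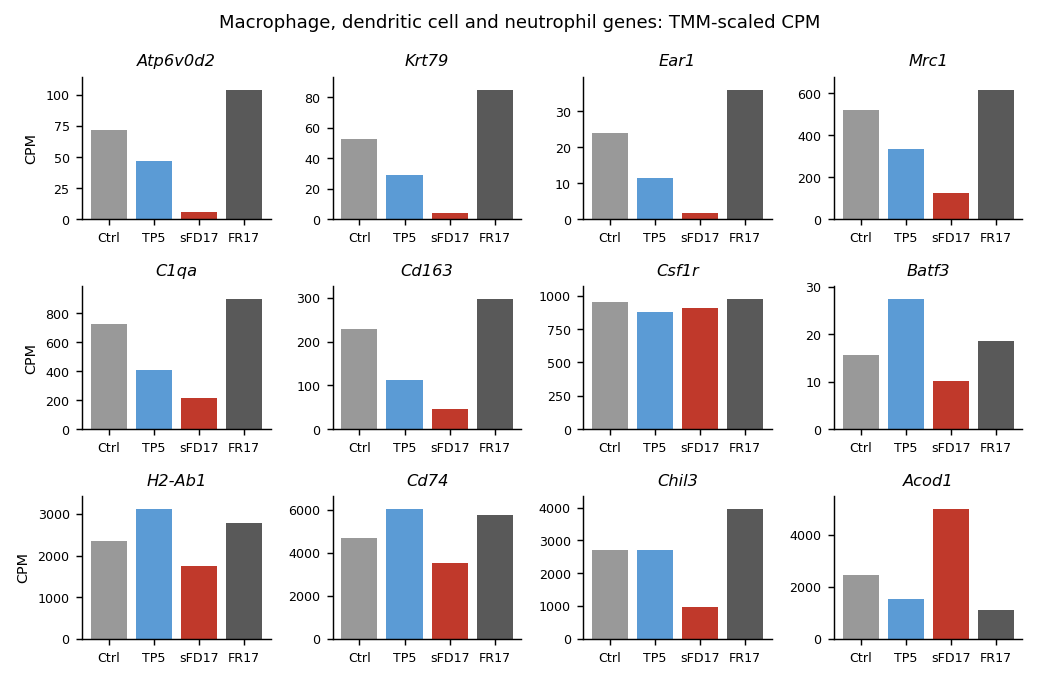
TMM-scaled CPM (vertical axes, linear from 0) of 12 macrophage, dendritic cell and neutrophil genes in the Ctrl, TP5, sFD17 and FR17 libraries, 1 bar per library without error bars. In Atp6v0d2, Krt79, Ear1, Mrc1, C1qa and Cd163 sFD17 is lowest and FR17 highest, Csf1r is nearly level, and Acod1 is highest in sFD17.

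Genes of mature neutrophils were on the other side. All 24 stood above TP5, 5 of them by at least 2-fold and 0 lower, with a median of 0.61, and sFD17 was the highest of the 4 libraries in 23. Acod1, which makes itaconate, had 41250 counts in Ctrl, 26727 in TP5, 65878 in sFD17 and 25033 in FR17 (1.71, 1.69 to 1.73). The stefin gene BC100530 was at 1.68, on 28 counts in TP5 and 71 in sFD17. Mxd1, a repressor of proliferation, had 48204, 37128, 61452 and 32030 (1.14), and the histamine enzyme gene Hdc was at 1.07. Secondary and tertiary granule genes had a median of 0.07, 1 of 16 lower, and that was Chil3, a chitinase-like protein also made by macrophages, with 45908, 47257, 12852 and 90730 counts (−1.47). Camp and Lyz2 were at −0.39 and −0.51, and Adam8 and Mmp25 at 0.77 and 0.72. The 7 primary granule genes, which are transcribed in immature neutrophils, all stood below TP5 with a median of −0.56, among them Mpo at −0.56 on 148 counts in TP5 and 75 in sFD17. For these 7 the median against Ctrl was 0.60 in sFD17 and 0.85 in TP5.

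The MDSC effector list had 2 of 19 genes at least 2-fold higher (10.5%, against 6.74% of all genes) and 1 lower (5.26%, against 5.64%), with a median of 0.38. Nos2 (ENSMUSG00000020826, chromosome 11 from 78920787 to 78960254), the inducible nitric oxide synthase, had 13, 10, 134 and 12 counts in Ctrl, TP5, sFD17 and FR17, a log2 fold change of 3.91 (3.23 to 5.25). Slc7a2, an arginine transporter, had 1034, 729, 161 and 1641 (−1.76), and Wfdc17 was at 1.09. The cystine transporter Slc7a11 had 20835, 20617, 30722 and 12218 counts (0.99), just under 2-fold. Of 15 checkpoint genes, 3 were higher and 1 lower, with a median of −0.02. Cd274, which encodes PD-L1, had 5399, 4253, 11398 and 4144 counts (1.83, 1.78 to 1.88), with an antisense gene on 511 of its 3622 exon bases. Entpd1 (CD39) was at 1.05, Lgals9 at 1.02 and Cd200r1 at −1.19. A few further genes of the 12 furthest above TP5 lay outside these lists. The endothelial lipase gene Lipg had 54, 39, 585 and 71 counts (4.25), and the uridine phosphorylase gene Upp1 had 394, 323, 2639 and 409 (3.43). Trim30c, of a family with close paralogs, had 36, 9, 121 and 36 (3.89).

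Of the inflammation lists, NF-kB response genes and the interleukin 1 and TNF families stood mostly above TP5, by less than the interferon-stimulated genes at the median, and the Toll-like list went both ways. The NF-kB subunits and response genes were at least 2-fold higher in 6 of 24 with 0 lower and a median of 0.69, led by Nfkbie at 1.34, which had 5256 counts in Ctrl, 4961 in TP5 and 9467 in sFD17, against 4912 in FR17. Icam1, the adhesion ligand of CD11b and CD11a, had 4657, 5922, 10967 and 4807 counts (95% interval of the log2 fold change 1.25 to 1.35). The interleukin 1 and TNF families had 5 of 20 higher, 0 lower and a median of 0.75, with the death ligand gene Tnfsf10 at 1.95 and the receptor gene Fas at 1.31. Il1b had 156498, 133841, 171491 and 129241 counts (0.77). The inflammasome list had 2 of 17 higher, Mefv at 1.36 and Casp4 at 1.11, and a median of 0.20. The interleukin 6, 10 and 12 families had 11 of 16 above TP5 and 5 below. In them Il23a was at 1.40 beside Il12a and Il27, and Il6 had 1502, 1378, 509 and 1622 counts (−1.02, −1.18 to −0.88). Toll-like receptors and adaptors had 1 of 22 higher, the coreceptor Cd14 at 1.11, with 40367 counts in TP5 and 65539 in sFD17, 13 above TP5, 9 below and a median of 0.13. The 24 immediate early genes, which respond to handling as well as to signals, had a median of 0.38 with 0 past 2-fold.

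Chemokines differed in both directions. Among CC chemokines, 2 of 15 were at least 2-fold higher and 4 lower, 10 stood below TP5, and the median was −0.67, while the ratio of their summed scaled counts was 0.976, and 1.13 without the most abundant, Ccl6. The monocyte attractant Ccl7 had 738, 400, 122 and 1623 counts in Ctrl, TP5, sFD17 and FR17 (−1.29, −1.61 to −1.01), Ccl12 had 494, 303, 98 and 957 (−1.21), and Ccl2 was at −0.92. Ccl17 and Ccl24, products of dendritic cells and macrophages, were at −1.18 and −1.04. Ccl5 had 387, 268, 554 and 1339 (1.45), and the other of the 2 higher genes, Ccl21a, had 0 counts in TP5 and 3 in sFD17, at the floor. Of the CXC chemokines, 3 of 13 were higher and 1 lower, 8 stood above TP5 and 5 below, with a median of 0.36, and the 3 were the interferon-induced ligands of CXCR3. Cxcl10 had 844, 704, 3467 and 1263 counts (2.71, 2.59 to 2.83), with 133 of its 2252 exon bases shared with Art3 on the opposite strand. Cxcl9 had 211, 94, 268 and 282 (1.90). Cxcl11, below the count minimum of the naming rule, had 3, 1, 43 and 8 counts, with an interval of 3.28 to 11.2. The B cell attractant Cxcl13 was at −1.33 and the neutrophil attractant Cxcl2 at 0.65, from 120978 counts in TP5 to 142913 in sFD17.

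Chemoattractant receptors, which guide MDSCs into the lung, had 3 of 30 genes at least 2-fold higher and 1 lower, against 6.74% and 5.64% of all genes, with a median of 0.36. The chemerin receptor gene Ccrl2 had 31130, 21782, 36959 and 23573 counts in Ctrl, TP5, sFD17 and FR17 (1.17). Ccr3 had 57, 134, 41 and 84 (−1.27), and the monocyte receptor gene Ccr2 had 2357, 3955, 1522 and 3366 (−0.97). The other genes past 2-fold, Fpr3 at 1.28 on 12 and 24 counts and Ccr10 on 1 and 5 counts, had too few counts for the naming rule. Fpr2 and Ptafr were at 0.90 and 0.89, and Cxcr2, the receptor that releases neutrophils from marrow, at 0.79. Leukocyte adhesion and migration genes had 1 of 32 higher, Icam1, and 0 lower, with a median of 0.20. Itgal was at 0.70 and Vcam1 at −0.82. Of 32 genes of T cell activation and leukocyte differentiation, 1 was higher (Il2rg, 1.13) and 2 lower (Il7r, −1.21, and Cd2, −1.11), with a median of −0.16. Il2rg shares 728 of its 2387 exon bases with Gm20489 on the same strand.

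Mitochondrially encoded genes were lower as a group. All 12 compared stood below TP5, 5 by at least 2-fold, with a median of −0.94, and the mitochondrial share of all counts was 0.455% in Ctrl, 0.615% in TP5 and 0.289% in sFD17, against 0.603% in FR17. The complex I subunit gene mt-Nd4 had 4471, 7021, 2228 and 7485 counts (−1.24, −1.31 to −1.18) and mt-Nd1 was at −1.16. In sFD17 these genes had their lowest value of the 4 libraries for all 12, against 36.9% of all genes compared. The part of the mitochondrial share in the other differences was not tested. Cell cycle genes had 4 of 31 at least 2-fold lower (12.9%, against 5.64% of all genes) and 0 higher (against 6.74%), a median of −0.42, with the centromere genes Cenpf and Cenpe at −1.25 and −1.13. Cenpf had 64, 155, 48 and 130 counts. TP5 held the highest value of the 4 libraries for 23 of the 31, against 19.8% of all genes compared. Glycolysis genes had 0 of 25 past 2-fold and a median of 0.19, with the glucose transporter Slc2a1 at 0.93 and Gapdh, whose reads are shared with many pseudogenes, at −0.91.

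Most matrix, fibroblast and endothelial genes stood above TP5. Collagens, laminins and matrix glycoproteins had 7 of 39 at least 2-fold higher and 0 lower, 35 above TP5 and 4 below, with a median of 0.66. Their most abundant member, the fibronectin gene Fn1, which is also on the monocyte list, went the other way with 12074 counts in TP5 and 5014 in sFD17 (−0.86). The summed scaled counts of the matrix list had a ratio of 0.972 (0.952 to 0.993), and of 1.56 (1.52 to 1.61) without Fn1. Fibroblast and smooth muscle markers had 12 of 14 above TP5 and 0 past 2-fold, with a median of 0.46. Col4a1, a basement membrane collagen, had 474, 304, 460 and 760 counts (1.00, 0.80 to 1.22). Endothelial markers had 4 of 14 higher and 0 lower, with a median of 0.69. The angiopoietin receptor gene Tek had 142, 67, 157 and 218 counts (1.61, 1.22 to 2.07), and Cdh5 had 402, 170, 346 and 612 (1.43). In Tek, Cdh5 and Col4a1 TP5 was the lowest library, and it was the lowest for 12 of 14 endothelial markers and 31 of 39 matrix genes. The other lists of this paragraph had medians between −0.34 (T cell markers) and 0.35 (colony-stimulating factors and receptors). The TGF-beta list had 2 of 20 lower and 0 higher, matrix metalloproteinases and inhibitors had Timp3 at 1.20, Mmp19 at −1.19 and Mmp12 at −1.10, and among angiogenic factors Prok2 was at 2.02 and Angptl4 at −1.62. Of the remaining lists, 2 of 21 NADPH oxidase and antioxidant genes were higher and 0 lower, with Nqo1 at 1.22 and Sod2 at 1.12, and 2 of 16 C-type lectin receptors were lower and 0 higher. Prostaglandin and leukotriene genes were lower in 2 of 16 and higher in 0, while heat shock proteins (16), the BCL2 family (15) and Fc receptors (11) had 0 past 2-fold. Granulocyte transcription factors had 1 of 15 higher, Mxd1, and colony-stimulating factors and receptors had Csf3 at 1.18 as the 1 higher of 14 and 1 lower. T cell markers had 0 of 14 past 2-fold, B and plasma cell markers 1 of 14 lower (Ms4a1, −1.03) and NK cell markers 3 of 12 higher and 1 lower. Alox15, a lipoxygenase of macrophages and eosinophils, was at −1.52 with 2267, 836, 218 and 2324 counts.

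**Figure D5:**
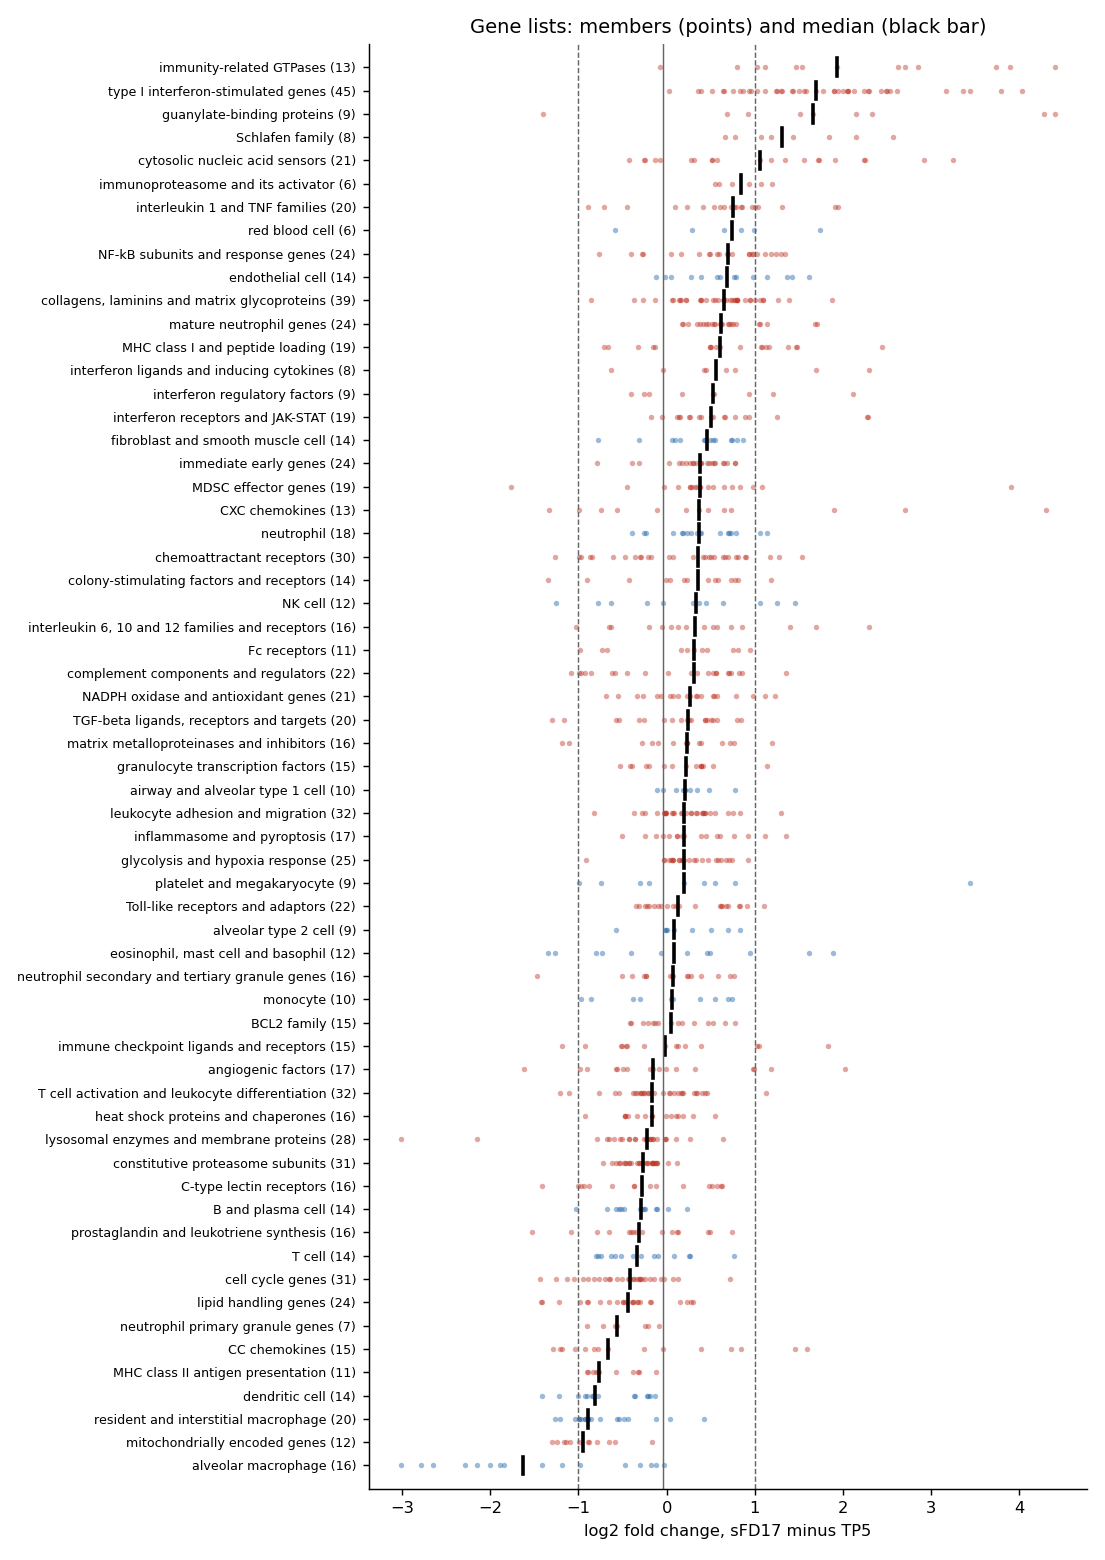
Log2 fold change of sFD17 over TP5 (horizontal axis) for the members of each gene list (points), with the list's median as a black bar, pathway lists in red and cell type markers in blue, for lists with at least 5 genes compared. Numbers compared stand in parentheses, the solid line is the median of all genes (−0.04) and dashed lines mark a 2-fold difference. IRGs (median 1.94), type I interferon-stimulated genes (1.70) and GBPs (1.66) have the highest medians, interferon regulatory factors (0.53) lie below the NF-kB list (0.69), and alveolar macrophage markers (−1.63) stand lowest.

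Set against the Ctrl library, which both comparisons share, the lists fell into different patterns. Of all genes, 5.32% were at least 2-fold higher and 6.47% lower in sFD17 than in Ctrl, and 3.19% and 4.99% in TP5. A single Ctrl library enters both values, so its own level moves them together, and the median of all genes against Ctrl was −0.03 in sFD17 and 0.00062 in TP5. For type I interferon-stimulated genes the median against Ctrl was 1.53 in sFD17 and −0.11 in TP5. GBPs stood at 1.15 in sFD17 and −0.74 in TP5, and IRGs at 1.51 and −0.44. Alveolar macrophage markers were at −2.25 in sFD17 and −0.62 in TP5, and resident macrophage markers at −1.81 and −0.84. For endothelial markers the medians were −0.02 in sFD17 and −0.76 in TP5, and for matrix genes 0.01 and −0.54. Class II genes were at −0.41 in sFD17 and 0.37 in TP5, and mitochondrially encoded genes at −0.39 and 0.58. Cell cycle genes had medians of 0.20 in sFD17 and 0.63 in TP5. Dendritic cell markers were at 0.22 in sFD17 and 0.81 in TP5.

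The difference also varied with the kind of transcript. Protein-coding genes had a median of −0.07 over 13503 genes, antisense transcripts 0.28 over 481, transcript models awaiting experimental evidence (TEC) 0.51 over 397, miRNA genes 0.68 over 54, snoRNA genes 0.37 over 36, transcripts within introns 0.35 over 52 and lincRNAs 0.14 over 481. Protein-coding genes among the 25% with the shortest gene length had a median of −0.17 and those among the 25% with the longest 0.04. By mean CPM, the 25% most abundant had a median of 0.13, with 131 at least 2-fold higher and 37 lower, and those above the lowest 25% and below the middle −0.25, with 109 higher and 179 lower. The TEC class was at least 2-fold higher for 117 of 397 genes and lower for 18. Their part in the list differences was not tested.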

How the data were processed

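The mRNA of CD11b+Ly6g+ cells sorted by FACS from mouse lung was sequenced with a directional library kit, 1 library for each of 4 groups. The authors deposited whole-number counts of reads on each gene, not normalized, on GRCm38.p6. The submitters' processing notes name HISAT2 2.0.5, StringTie 1.3.3b, featureCounts 1.5.0-p3 and edgeR 3.18.1, with no roles, and the strand setting of the counting is not given in the sources used here. Library totals were 15543071 to 19638228 counts. Columns matched the samples by group name. For 100 symbols given on several rows, the most abundant row was kept.

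Genes that reached 10 counts in any library were scaled with TMM over the 4 libraries (R 4.3.3, edgeR 4.0.16), and log2 CPM used a prior count of 2. With 1 library per group no test was run. A gene was counted at 2-fold, and each has the 95% exact (Clopper-Pearson) interval of its pair of counts, which covers counting error only. Only 1 pair of peptides was compared. Genes with at least 50 counts in sFD17 or TP5 were named if among the 12 furthest above or below with the whole interval past 2-fold and protein coding, among the 6 largest differences of a list, or in a list of at most 12, and any other gene named was chosen after its values were seen. Some genes that the rule selects are not reported here. The members, lists and rules were chosen with earlier results of these data known. Overlapping exons came from GENCODE M21, in which 53499 of 54409 matched identifiers have the same coordinates. The procedure was tested on simulated data. Alternatives were DESeq2 1.42.0 size factors, other filters, priors and folds. Python 3.11.15, pandas 2.3.3, numpy 2.4.6, scipy 1.17.1 and matplotlib 3.10.9 were used.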

Additional observations from a re-analysis of the deposited data

How the results depend on the processing

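Against 1103 genes at least 2-fold higher in sFD17 than in TP5 and 923 lower, library size alone gave 709 higher and 1646 lower, no filter on low counts 2137 and 2156, and 10 or more counts in every library 602 and 378. The whole interval past 2-fold gave 318 and 108, a 1.5-fold rule 2517 and 2682, and a 4-fold rule 170 and 104. DESeq2 size factors (1223 and 837), TMM on the pair alone (1137 and 861), a prior count of 0.5 (1308 and 1069) and all rows kept (1103 and 923) stayed within 1.5 times. Library size alone moved the median of all genes from −0.04 to −0.30. Relative to that median, type I interferon-stimulated genes lay between 1.71 and 1.82, mature neutrophil genes between 0.63 and 0.66, class II genes between −0.75 and −0.72 and alveolar macrophage markers between −1.61 and −1.37 in all settings of scaling, filter and prior. Of all lists, 3 changed side, each within 0.5 of the median: checkpoint genes and the BCL2 family without a filter, and eosinophil, mast cell and basophil markers with 10 or more counts in every library. Before scaling, the share of counts on NK cell markers, higher in sFD17 than in TP5, was 0.911 times that of TP5 without its most abundant gene, Ccl5. No paired analysis was possible because each group has 1 library, and for the same reason neither sFD17 nor TP5 could be left out. Differences between animals and between preparations are not measured here.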
